A study of Mus musculus with 9 samples.

Results

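The 10 genes described here encode transcription factors that set and keep the identity of B cells: Pax5, Ebf1, Bach2, Bcl6, Spib, Spi1, Id3, Foxo1, Bcl11a and Irf8. They were chosen by name, and all 10 were found among the 46958 genes of the count table. The libraries are RNA-seq of splenic plasma cells from mice aged 3 months and never immunized, with 3 mice, 1 library each, for the genotypes labelled WT, DH-LMP2A and kFRA (LCDD). All mice had the strain background mixed C57/BL6x129/SVxBALB/c, and each sample was the whole CD138-positive fraction of a single spleen, taken with magnetic beads at a stated purity above 80%. The labels do not describe the alleles. As background, LMP2A is an Epstein-Barr virus membrane protein that imitates the tonic signal of the B cell receptor, and in DH-LMP2A mice it is expressed from the heavy-chain locus, so that B cells form without a heavy chain. LCDD stands for light chain deposition disease, and kFRA mice carry a human kappa light chain from that disease. Whether the kFRA mice also carry the DH-LMP2A allele is not given in the labels. Ighm, which encodes the heavy chain of IgM, was at 154254 to 184338 CPM (read counts relative to the scaled size of the library) in the WT libraries, against 9365 to 10028 for DH-LMP2A and 6981 to 10469 for kFRA.

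B cells and plasma cells are stages of the same lineage held by opposing sets of factors. EBF1 and PAX5 switch on the B cell program early in development, PAX5 together with BACH2 and BCL6 holds back plasma cell genes, and the ETS factors PU.1 (gene Spi1) and SPI-B act with IRF8 or IRF4 on shared DNA elements. During plasma cell differentiation BLIMP-1 (gene Prdm1), IRF4 and XBP1 take over, and BLIMP-1 represses Pax5, Bcl6, Spib and Id3 among others. Transcripts of these factors in a CD138-positive fraction can come from the plasma cells, from plasmablasts that still hold part of the B cell program, or from other cells carried along. In bulk RNA, fewer cells of a type and less RNA per cell cannot be told apart.

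The fraction carried the markers of plasma cells in every library. Sdc1, which encodes CD138, lay between 302 and 693 CPM, and Jchain, the joining chain of secreted IgM and IgA, between 14680 and 38647 CPM. Total counts ranged from 15449026 to 21558128 per library, at which 3 counts, taken as the floor of detection, equal 0.139 to 0.194 CPM. Libraries of a genotype differed in their marker sums. Replicate 3 of DH-LMP2A had 12134 CPM summed over 7 erythroid markers, against 2290 and 2393 in the other DH-LMP2A libraries. Replicate 2 of kFRA had 666 CPM summed over 8 cell cycle genes, against 239 and 268 in the other kFRA libraries. Granulocyte markers summed to 1216 CPM in replicate 2 of WT, against 439 and 494 in the other WT libraries, and to 33.4 CPM in replicate 3 of DH-LMP2A, against 302 and 325.

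Compared per kilobase of gene length, the members fell into an order that was broadly alike at the top in the 3 genotypes. In WT, Spi1 was highest at 28.1 ± 4.81 CPM per kilobase (SD, n = 3), followed by Irf8 at 20.6 ± 3.19, and the ranges of these neighbours overlapped. Spib followed at 13.7 ± 3.79, below every Irf8 value and above every Pax5 value. Pax5 at 6.54 ± 2.8 and Foxo1 at 6.41 ± 0.988 overlapped and lay above the rest, which ran from Bach2 at 2.46 ± 0.937 through Bcl6, Id3 and Ebf1 down to Bcl11a at 0.766 ± 0.391, each overlapping its neighbours. In kFRA, Spi1 (14.6 ± 0.657 CPM per kilobase), Irf8 (9.84 ± 1.82) and Foxo1 (5.22 ± 1.1) headed the order, and no range in the run from Spi1 through Irf8, Foxo1 and Spib to Pax5 overlapped that of the next. Pax5 was at 0.803 ± 0.414 there and Bach2 was lowest at 0.279 ± 0.135. In DH-LMP2A, Spi1 (14.4 ± 2.03 CPM per kilobase) lay above all Irf8 values (8.37 ± 1.72), while Irf8 overlapped Foxo1 (7.57 ± 1.83) and Foxo1 overlapped Spib (3.61 ± 3.48).

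**Figure D1:**
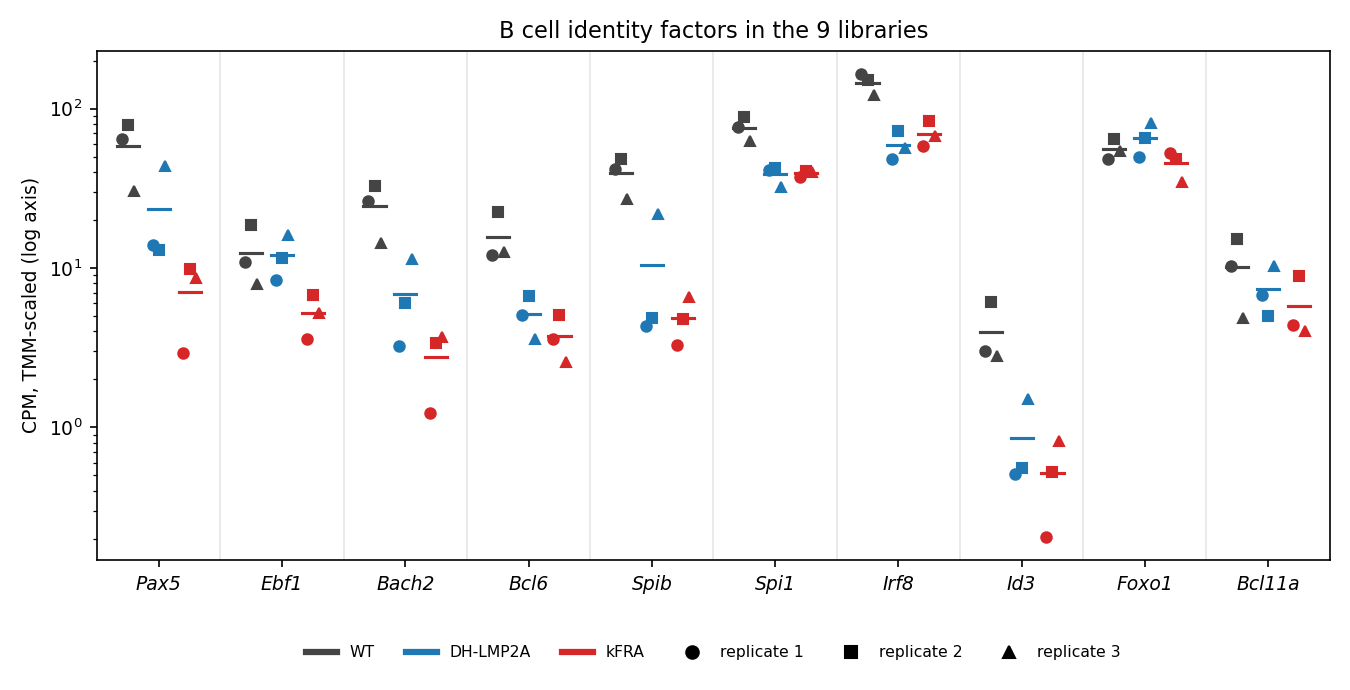
Level of each member in each library, in CPM on a log axis, with points for libraries (shape by replicate, colour by genotype) and bars for the mean of 3. Pax5, Bach2, Spib and Id3 lie lower in all kFRA libraries than in all WT libraries, whereas the Foxo1 and Bcl11a points of the 3 genotypes overlap.

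The comparison of kFRA with WT sets the cells with the disease light chain against those of normal mice. These genotypes also differ in their Ighm level, as given above, so a difference cannot be assigned to the light chain here. 8 of the 10 members were lower in kFRA and none was higher by edgeR's quasi-likelihood test, at a Benjamini-Hochberg adjusted p-value under 0.05 over all 14199 genes tested. Over all genes, 11.1% were called lower in this comparison. The members' median log2 fold change was −1.66 (range −3.13 to −0.30), against −0.04 over all genes. Every kFRA library lay below every WT library for 8 members, as for 20.2% of all genes.

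Pax5, the factor that commits cells to the B lineage, was at 64.3, 78.8 and 30.5 CPM in WT replicates 1 to 3 and at 2.94, 9.8 and 8.59 CPM in kFRA. All 3 kFRA values lay below the lowest WT value, and kFRA replicate 1 was lowest. The log2 fold change was −3.01 (SE 0.612, adjusted p = 0.0104), an 8.07-fold difference. Bach2, a repressor that delays plasma cell differentiation, was at 26.2, 32.7 and 14.3 CPM in WT and 1.23, 3.38 and 3.7 CPM in kFRA, with a log2 fold change of −3.13 (SE 0.546, adjusted p = 0.00519). Spib, the ETS factor SPI-B of mature B cells, was at 42, 48.3 and 27.1 CPM in WT and 3.28, 4.76 and 6.52 CPM in kFRA, with a log2 fold change of −3.01 (SE 0.615, adjusted p = 0.0107). In these 3 genes WT replicate 3 was the lowest of its genotype and kFRA replicate 1 the lowest of all 9 libraries. Spib just missed the threshold when kFRA replicate 1 was left out (−2.80, adjusted p = 0.0509), while Pax5 and Bach2 passed whichever of the 6 libraries was left out.

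Sequence before RefSeq transcription starts of these genes is shown because Pax5, Bach2 and Spib were each about 8-fold lower in kFRA, with Irf8, which was about 2-fold lower, beside them. RefSeq on GRCm38.p6 gave a start for 9 of the 10 members; Spi1 was not matched. Of the promoters listed, those shown hold the 250 bases before the RefSeq start of Pax5 (chr4:44710695-44710944, minus strand), Bach2 (chr4:32417185-32417434, plus strand), Spib (chr7:44532072-44532321, minus strand) and Irf8 (the first of 2 starts, chr8:120736108-120736357, plus strand), none of which overlaps an exon of GENCODE M21. The RefSeq start of Pax5 lies outside the span of the gene in the table. The bases after that start were not found in a GENCODE M21 transcript of Pax5. The Bach2 window precedes an internal start and lies within the span of the gene in the table, not upstream of it. Each is written 5′ to 3′ on the strand of its gene, with capitals where a searched motif was found.
Pax5: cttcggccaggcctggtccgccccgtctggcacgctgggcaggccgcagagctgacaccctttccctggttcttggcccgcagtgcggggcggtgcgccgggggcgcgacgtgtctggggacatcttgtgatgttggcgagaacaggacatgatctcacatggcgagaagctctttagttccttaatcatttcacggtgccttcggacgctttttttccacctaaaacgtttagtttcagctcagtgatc
Bach2: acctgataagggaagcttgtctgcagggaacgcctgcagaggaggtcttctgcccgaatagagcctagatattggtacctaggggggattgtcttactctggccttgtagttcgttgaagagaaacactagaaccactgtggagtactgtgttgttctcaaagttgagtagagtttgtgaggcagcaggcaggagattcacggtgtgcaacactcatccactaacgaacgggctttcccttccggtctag
Spib: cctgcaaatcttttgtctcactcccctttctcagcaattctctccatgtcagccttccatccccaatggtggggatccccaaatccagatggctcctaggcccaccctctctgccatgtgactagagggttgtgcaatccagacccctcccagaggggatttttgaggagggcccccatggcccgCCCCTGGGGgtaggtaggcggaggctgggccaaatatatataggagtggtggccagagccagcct
Irf8: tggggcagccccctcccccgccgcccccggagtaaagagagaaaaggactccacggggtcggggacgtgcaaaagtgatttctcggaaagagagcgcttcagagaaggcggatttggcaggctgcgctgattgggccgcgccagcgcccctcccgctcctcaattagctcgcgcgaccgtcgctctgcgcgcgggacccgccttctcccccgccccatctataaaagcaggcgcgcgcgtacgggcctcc

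Both strands were searched for GGAANTGAA (an ETS-IRF composite element), AGNGAAAGT (the core of a PRDM1 site), ATGCAAAT (the octamer), CAGCTG (an E-box) and CCCNNGGG (the core of an EBF1 site), N being any base. Among these 4 windows only Spib held a match, a pair of overlapping CCCNNGGG matches 65 and 64 bases before the start. Among the other windows of members, the second start of Ebf1 held AGNGAAAGT 171 bases before it, Foxo1 held CCCNNGGG at 91 bases and Bcl11a held GGAANTGAA at 159 bases. CCCNNGGG occurred in 11.8% of the 32851 RefSeq windows of this length, CAGCTG in 13%, GGAANTGAA in 1.94%, ATGCAAAT in 1.6% and AGNGAAAGT in 1.18%. The windows differed in base composition: that of Spib held 2 CG dinucleotides, that of Bach2 7, that of Pax5 19 and that of Irf8 29, against a median of 6 over all windows. A match is a description of letters and no site of binding, and these windows leave out more distant elements.

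Id3, an inhibitor of E proteins, had the fewest counts of the set. Its counts were 59, 119 and 44 in WT (2.99, 6.07 and 2.8 CPM) and 3, 11 and 13 in kFRA (0.205, 0.523 and 0.815 CPM), so that kFRA replicate 1 lay at the floor of 3 counts. The log2 fold change of Id3 was −2.92 (SE 0.587, adjusted p = 0.00996). Bcl6, the repressor that drives the germinal centre program, was at 12, 22.3 and 12.5 CPM in WT and 3.56, 5.04 and 2.57 CPM in kFRA, without overlap, and its log2 fold change was −2.06 (SE 0.353, adjusted p = 0.00476). Ebf1, which acts upstream of Pax5, differed less, with 10.9, 18.5 and 7.9 CPM in WT and 3.56, 6.8 and 5.21 CPM in kFRA. Its log2 fold change of −1.25 (SE 0.372) passed narrowly (adjusted p = 0.0462) and did not pass without kFRA replicate 1 (adjusted p = 0.152), kFRA replicate 3 (0.12), WT replicate 1 (0.078) or WT replicate 2 (0.17).

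Spi1 and Irf8, the most abundant members per kilobase, fell by smaller and tighter amounts. Spi1, which encodes PU.1, was at 76.6, 88.2 and 62.3 CPM in WT and 37.3, 40.7 and 39.7 CPM in kFRA, a log2 fold change of −0.95 (SE 0.159, adjusted p = 0.00422). Irf8, the partner factor of PU.1 in B cells, was at 165, 150 and 121 CPM in WT and 57.9, 83.3 and 67.1 CPM in kFRA, a log2 fold change of −1.07 (SE 0.199, adjusted p = 0.00694). Both passed whichever of the 6 libraries was left out, but neither did under scaling by library size alone (adjusted p = 0.0532 for Spi1 and 0.0672 for Irf8). PU.1 and IRF8 are also made by macrophages and dendritic cells. Of 8 macrophage and monocyte markers, 3 were called lower in kFRA against WT. Of the 7 conventional dendritic cell markers tested, 1 was called lower, and none of either list was called higher. Over all genes 11.1% were called lower in this comparison, so 1 of 7 lies near that share. The summed level of 8 macrophage and monocyte markers was 2178 to 3918 CPM in WT and 1245 to 1941 CPM in kFRA, and that of 8 conventional dendritic cell markers 60.9 to 99.7 and 31.3 to 43.2 CPM. Itgax alone made up most of the dendritic cell sum, at 60.2 ± 16.3 CPM in WT and 27.4 ± 6.44 in kFRA (SD, n = 3 each). The part of these cells in the result was not tested.

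Foxo1 and Bcl11a did not pass. Foxo1, a forkhead factor needed at several B cell stages, was at 48, 64.8 and 53.8 CPM in WT and 52.7, 48.4 and 34.6 CPM in kFRA, so that the ranges overlapped (log2 fold change −0.30, SE 0.22, adjusted p = 0.354). Bcl11a, a zinc finger factor of early lymphoid cells, was at 10.3, 15.1 and 4.84 CPM in WT and 4.38, 8.9 and 4.01 CPM in kFRA, also overlapping (−0.80, SE 0.459, adjusted p = 0.238). A p-value above the threshold does not show that these levels were equal.

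In DH-LMP2A against WT, which compares the mice with the viral receptor mimic with normal mice, 5 members were lower and none higher (edgeR, adjusted p-value under 0.05): Bach2, Bcl6, Spi1, Id3 and Irf8. Over all genes 7.3% were called lower. The members' median log2 fold change was −1.31 (range −2.20 to 0.24), against −0.01 over all genes, and 6 members had every DH-LMP2A library below every WT library, as did 19.1% of all genes.

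Irf8 was at 48.4, 72.2 and 56.5 CPM in DH-LMP2A (log2 fold change −1.30, SE 0.2, adjusted p = 0.00322) and Spi1 at 41, 42.6 and 32.4 CPM (−0.97, SE 0.159, adjusted p = 0.0044). These were the 2 members called whichever of the 6 libraries was left out, and neither was called under scaling by library size alone (adjusted p = 0.0504 for Irf8 and 0.0959 for Spi1). Bcl6 was at 5.08, 6.68 and 3.57 CPM (−1.61, SE 0.344, adjusted p = 0.0153), Id3 at 0.508, 0.557 and 1.51 CPM (−2.20, SE 0.545, adjusted p = 0.029) and Bach2 at 3.22, 6.03 and 11.3 CPM (−1.83, SE 0.507, adjusted p = 0.0449). Replicate 3 was the highest DH-LMP2A library for Id3 and Bach2 and the lowest for Bcl6 and Spi1. The number of members called was 2 without DH-LMP2A replicate 1, 3 without DH-LMP2A replicate 2 and 2 without WT replicate 2. Leaving out DH-LMP2A replicate 1 or WT replicate 2 ended the calls of Bcl6, Id3 and Bach2, leaving out DH-LMP2A replicate 2 ended those of Id3 and Bach2, and leaving out WT replicate 1 ended that of Bach2.

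Pax5 and Spib were split by the same library. Pax5 was at 13.9 and 12.9 CPM in DH-LMP2A replicates 1 and 2 and at 43.4 CPM in replicate 3, which lay within the WT range (log2 fold change −1.31, SE 0.567, adjusted p = 0.177). Spib was at 4.32 and 4.87 CPM and at 21.9 CPM in replicate 3, still below the lowest WT library (−1.92, SE 0.579, adjusted p = 0.0619). Without replicate 3 both passed, Pax5 with a log2 fold change of −2.10 (adjusted p = 0.0321) and Spib with −3.08 (adjusted p = 0.000824), and 7 members were called lower. The summed level of 8 mature B cell surface markers was also highest in that library, at 736 CPM against 560 and 514 in replicates 1 and 2. The part of these cells in the split was not tested.

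Ebf1 and Foxo1 did not follow the other members in DH-LMP2A. Ebf1 was at 8.42, 11.6 and 16.2 CPM, about the level of WT (log2 fold change −0.04, SE 0.359, adjusted p = 0.964). Foxo1 was at 49.7, 65.6 and 81.5 CPM (0.24, SE 0.219, adjusted p = 0.558), and Bcl11a at 6.73, 5.01 and 10.3 CPM (−0.46, SE 0.453, adjusted p = 0.593). All 3 overlapped the WT range, and the sign of the Ebf1 difference changed under library size alone (0.27) and without DH-LMP2A replicate 1 (0.16) or WT replicate 2 (0.36).

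**Figure D2:**
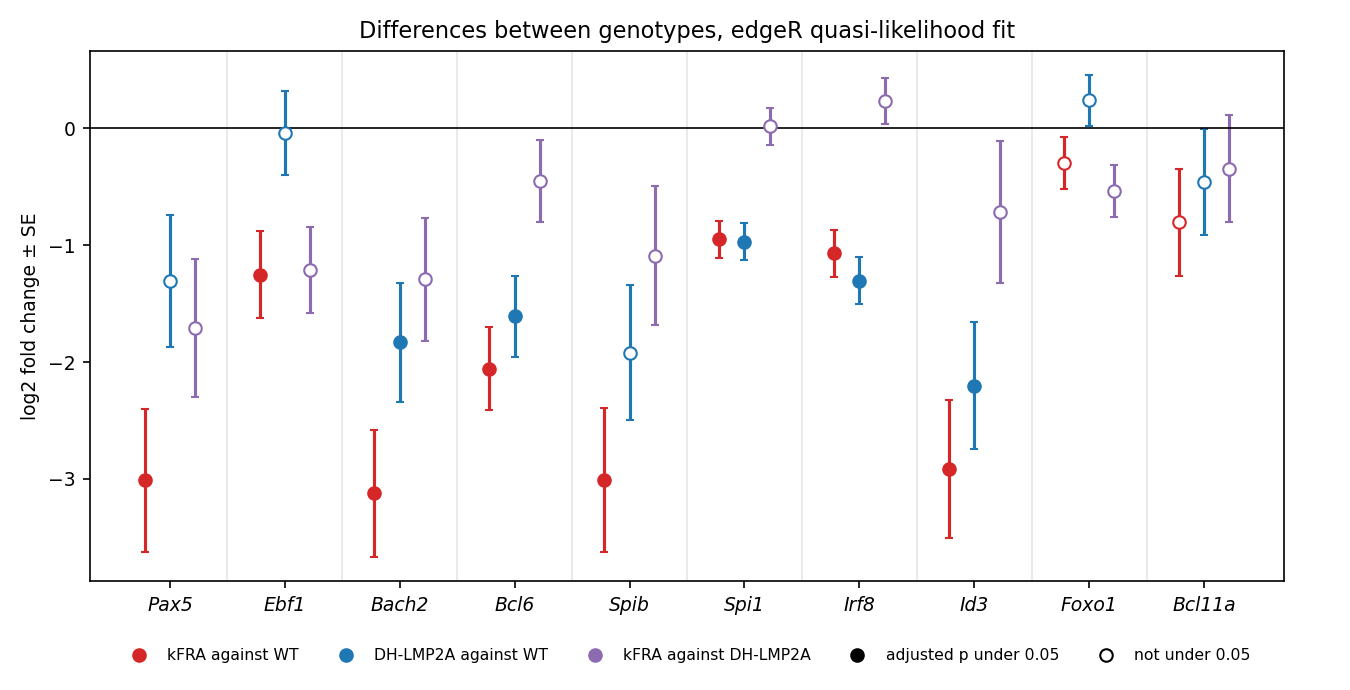
Log2 fold change of each member in the 3 comparisons, with bars for the standard error and filled points where the adjusted p-value was under 0.05. Filled points stand at 8 members for kFRA against WT, at 5 for DH-LMP2A against WT and at none for kFRA against DH-LMP2A.

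The direct comparison of kFRA with DH-LMP2A tests the difference between the genotypes whose Ighm level was below that of WT. None of the 10 members was called by edgeR, where 5.02% of all genes were called in either direction. 4 members (Ebf1, Pax5, Foxo1 and Bach2) had an unadjusted edgeR p-value under 0.05, as did 3183 of all 14199 genes. The Wald test of DESeq2 called 2 members, and 1405 of 14186 genes. These members were Pax5 (log2 fold change −1.69, adjusted p = 0.0259) and Ebf1 (−1.19, adjusted p = 0.0242). The members' median log2 fold change was −0.63 (range −1.71 to 0.23), against −0.01 over all genes. The kFRA libraries lay below all DH-LMP2A libraries for 2 members, Pax5 and Ebf1, as they did for 13.9% of all genes. The edgeR log2 fold change was −1.71 for Pax5 (SE 0.59, adjusted p = 0.14) and −1.21 for Ebf1 (SE 0.371, adjusted p = 0.104). Without DH-LMP2A replicate 3, its highest library for Pax5, the Pax5 difference was −0.87 (adjusted p = 0.366). Ebf1 passed without kFRA replicate 2 (−1.39, adjusted p = 0.0434). The log2 fold changes of Spi1 (0.02, SE 0.158, adjusted p = 0.955) and Irf8 (0.23, SE 0.198, adjusted p = 0.505) were small, and their ranges overlapped. The calls against WT in the preceding comparisons share the WT libraries, so the counts of 8 and 5 are not evidence of a difference between kFRA and DH-LMP2A.

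The fold changes above rest on scaling by the trimmed mean of M values. Scaling by library size alone moved the median log2 fold change of all genes to 0.17 in kFRA against WT, 0.33 in DH-LMP2A against WT and −0.14 in kFRA against DH-LMP2A. It left 5 members called lower in kFRA against WT (Pax5, Bach2, Bcl6, Spib and Id3) and 1, Id3, in DH-LMP2A against WT. The genes called higher then numbered 2363 of 3280 against 948 of 2523 for kFRA, and 2053 of 2571 against 720 of 1756 for DH-LMP2A.

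Genes that PAX5 or EBF1 are known to activate did not move as a block. Of 12 such genes 6 were lower and 1 higher in kFRA against WT. Their median log2 fold change was −0.90, against −0.04 over all genes. Over all 14199 genes, 11.1% were called lower and 948 genes higher in that comparison. Those with the smallest p-values were Cd72 (35.9 ± 7.2 CPM in WT, 2.78 ± 1.12 in kFRA, SD, n = 3 each), a coreceptor that restrains B cell receptor signals, Cd22 (94.6 ± 33.3 and 7.8 ± 1.63), another inhibitory coreceptor, and Ciita (43.8 ± 18.1 and 8.64 ± 3.88), the master activator of MHC class II. Their log2 fold changes were −3.69, −3.60 and −2.34 (edgeR adjusted p = 0.00106, 0.00434 and 0.0121). The gene called higher was Blnk, an adaptor of B cell receptor signalling (0.53, adjusted p = 0.0492). Cd72, Cd22 and Ciita overlap exons of Tesk1, Gm29439 and Dexi on the opposite strand, so their counts are uncertain. In DH-LMP2A against WT, 3 were lower (Cd72, Ciita and Cd22) and 2 higher, Cd79a (log2 fold change 1.19, SE 0.252, adjusted p = 0.0145), a signalling chain of the B cell receptor, and Cr2 (1.13, SE 0.287, adjusted p = 0.0316), the complement receptor CD21. Over all 14199 genes, 7.3% were called lower and 720 genes higher in DH-LMP2A against WT. Against DH-LMP2A, Cr2 (−2.45, edgeR adjusted p = 0.00126) and Pou2af1 (−0.64, adjusted p = 0.0461) were lower in kFRA. In that comparison 5.02% of all genes were called in either direction.

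Other transcription factors of the B lineage were called in small numbers by edgeR, and in larger numbers by the DESeq2 Wald test. Of 18 such genes, 1 was called lower in kFRA against WT, where 11.1% of all genes were, namely Runx1 (log2 fold change −1.01, SE 0.237, adjusted p = 0.0195), and the median was −0.30. In DH-LMP2A against WT the median was −0.05, with Pou2f2, which encodes the octamer factor OCT2, lower (−0.88, SE 0.194, adjusted p = 0.0179) and Foxp1 higher (0.74, SE 0.185, adjusted p = 0.0306). The median was −0.40 for kFRA against DH-LMP2A, where 2 of the 18 factors and none of the 10 members were called, against 5.02% of all genes. These were Mef2c (−0.89, SE 0.198, adjusted p = 0.0352) and Pou2af1, the coactivator of OCT2, both lower in kFRA. Runx1, Pou2f2 and Foxp1 overlap exons of other genes and are uncertain. In kFRA against WT, DH-LMP2A against WT and kFRA against DH-LMP2A, 7, 9 and 9 of the 18 had an unadjusted edgeR p-value under 0.05. Over all 14199 genes, 4964, 3778 and 3183 had one. The DESeq2 Wald test called 4, 7 and 5 of the 18 in the same order, against 3515, 2528 and 1405 of 14186 genes.

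The opposing plasma cell factors were abundant in every genotype. Of 6 such genes, edgeR and the DESeq2 Wald test each called 0 in kFRA against WT and in kFRA against DH-LMP2A, where 0 and 1 had an unadjusted p-value under 0.05. In DH-LMP2A against WT both tools called 1, Prdm1, higher. Prdm1, which encodes BLIMP-1, was at 184 ± 53 CPM in WT, at 233 ± 32.6 CPM in kFRA and at 369 ± 14 CPM in DH-LMP2A (SD, n = 3 each; DH-LMP2A against WT log2 fold change 0.999, SE 0.215, adjusted p = 0.0159; kFRA against WT 0.34, adjusted p = 0.281; kFRA against DH-LMP2A −0.66, adjusted p = 0.12). Irf4 was at 597 ± 222, 804 ± 190 and 854 ± 112 CPM in WT, kFRA and DH-LMP2A, and Xbp1 at 1714 ± 477, 2073 ± 237 and 2249 ± 334 CPM. Irf4 and Xbp1 were not called in any of the 3 comparisons, the smallest adjusted p-values being 0.286 and 0.368.

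Because mature B cells carried into the fraction would add transcripts of the members, each member was also set against 8 surface markers of B cells in the same library. The mean log2 CPM of these markers was 5.24 to 6.14 in WT, 4.74 to 5.80 in DH-LMP2A and 4.04 to 4.33 in kFRA, so that the kFRA and WT ranges did not overlap. The list was uneven, and Cd22, Fcer2a, Cr2 and Cd72 also stand in the list of genes activated by PAX5 or EBF1, so that the markers are not independent of the members. These 4 markers were called lower in kFRA against WT, and Ms4a1, which encodes CD20, was at 57.1 ± 15.9 CPM in kFRA and 65.8 ± 18.7 in WT (adjusted p = 0.595). In DH-LMP2A against WT, Ms4a1, Cr2 and Fcrl1 were higher and Cd22 and Cd72 lower. Relative to the marker mean, Pax5, Bach2, Spib and Id3 lay lower in every kFRA library than in every WT library, 4 of 10 members against 3.81% of all genes. The same 4 genes did so in DH-LMP2A, against 3.65% of all genes. On this scale the median difference of all genes was 1.52 for kFRA against WT and 0.65 for DH-LMP2A against WT. This upward shift by itself keeps the shares of all genes lying lower small. For Spib this difference from the markers was −0.49 ± 0.038 log2 units for WT, −2.12 ± 0.685 for DH-LMP2A and −1.93 ± 0.339 for kFRA (SD, n = 3 each). For Pax5 it was 0.00 ± 0.267, −0.78 ± 0.369 and −1.51 ± 0.819 in the same order. Spi1, Irf8 and Foxo1 lay higher relative to the markers in every kFRA library than in every WT library, as did 78.7% of all genes. With the marker mean as a covariate in the edgeR fit, which also takes up the difference between genotypes in the markers themselves, none of the 10 members was called in kFRA against WT, where 342 of 14199 genes were called. In that fit 2 members had an unadjusted p-value under 0.05, as did 1846 of the 14199 genes. The log2 fold change of Pax5 was then −0.32 (adjusted p = 0.851) and that of Bcl6 −2.27 (adjusted p = 0.261).

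**Figure D3:**
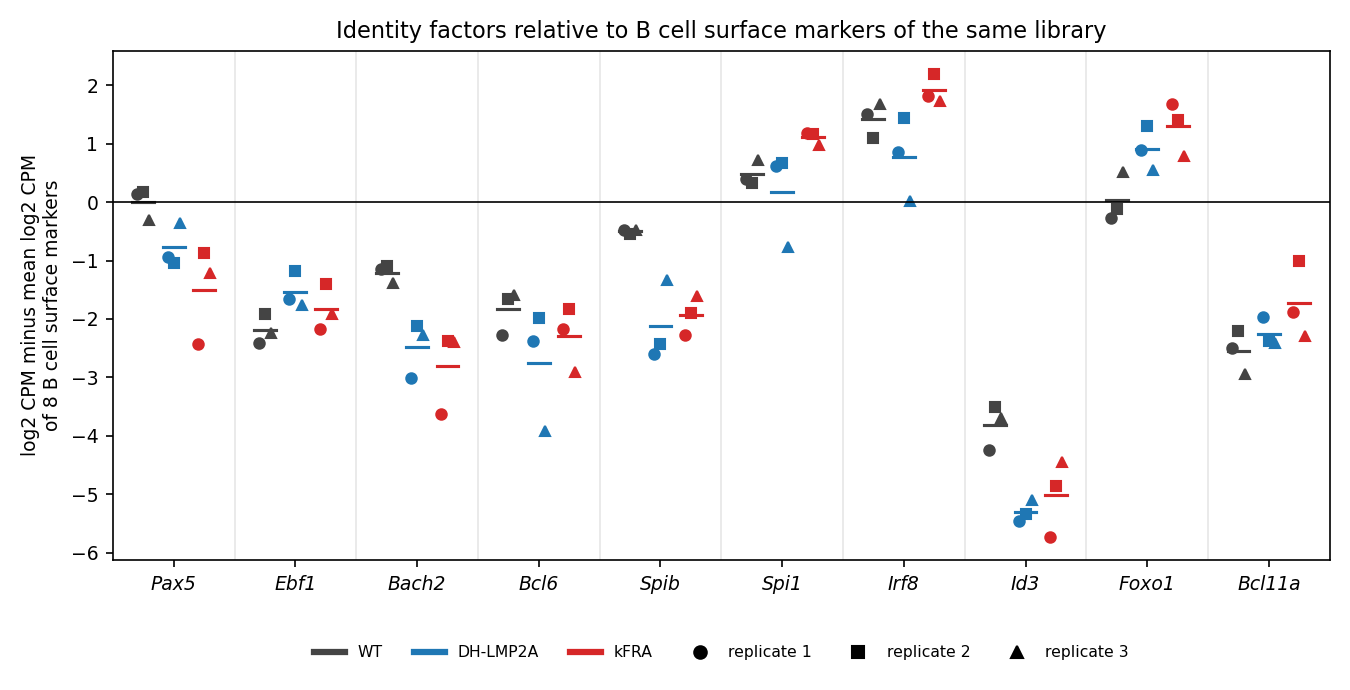
Log2 CPM of each member minus the mean log2 CPM of 8 B cell surface markers of the same library, by genotype and replicate, with bars for the mean of 3. Pax5, Bach2, Spib and Id3 lie lower in all DH-LMP2A and all kFRA libraries than in all WT libraries, against 3.65% and 3.81% of all genes. Ebf1 and Foxo1 lie higher in all DH-LMP2A libraries than in all WT libraries, as do 12.7% of all genes. The median difference of all genes on this scale is 1.52 for kFRA against WT and 0.65 for DH-LMP2A against WT.

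Some markers of other cells differed between the genotypes as well. Over all 14199 genes, 11.1% were called lower and 948 genes higher in kFRA against WT. In DH-LMP2A against WT, 7.3% were called lower and 720 genes higher. Against these shares, a single call in a list of 7 or 8 genes says little about the list. Germinal centre B cell markers summed to 77.3 to 105 CPM in WT, 38.4 to 50 in DH-LMP2A and 29.2 to 49.5 in kFRA, where Rgs13 had no count. Of the 5 markers tested, S1pr2, Nuggc and Fas were lower in kFRA against WT and Nuggc and Fas in DH-LMP2A against WT, beside the lower Bcl6. Plasmacytoid dendritic cells also use Spib, Irf8 and Bcl11a, and their markers summed to 73.9 to 117 CPM in WT, 37.3 to 53.6 in DH-LMP2A and 39 to 67.3 in kFRA. Lair1, which other leukocytes also express, made up most of this sum in WT (66.3 ± 17 CPM, SD, n = 3). Of the 7 tested, 4 were lower and 1 higher in kFRA against WT, and 3 were lower and 1 higher in DH-LMP2A against WT. The marker higher in kFRA was Siglech, a defining surface lectin of these cells, at 7.3 ± 3.92 CPM for kFRA, 1.93 ± 0.244 for DH-LMP2A and 0.89 ± 0.227 for WT (kFRA against WT log2 fold change 3.03, edgeR adjusted p = 0.00156, and against DH-LMP2A 1.91, adjusted p = 0.0239). Conventional dendritic cell markers summed to 21.5 to 45.4 CPM in DH-LMP2A, with 1 of 7 called lower in kFRA and 2 in DH-LMP2A against WT. Macrophage and monocyte markers summed to 667 to 1885 CPM in DH-LMP2A, with 3 of 8 called lower in kFRA and 2 in DH-LMP2A against WT. Granulocyte markers summed to 439 to 1216 CPM in WT, 33.4 to 325 in DH-LMP2A and 21.5 to 36.9 in kFRA, with 4 of 7 called lower in kFRA against WT and 1 higher in DH-LMP2A against WT. T cell markers summed to 47.2 to 99.8 CPM in WT, 77 to 128 in DH-LMP2A and 46.1 to 72.1 in kFRA. The WT range overlapped both others, while every DH-LMP2A sum lay above every kFRA sum. In each comparison with WT, 1 of 8 was called higher. It was Cd8b1 in both, at 0.734 ± 0.153 CPM in WT, 13.3 ± 3.22 in kFRA and 38.8 ± 10.1 in DH-LMP2A (SD, n = 3 each). Against WT its log2 fold change was 4.17 in kFRA (edgeR adjusted p = 1.68e-05) and 5.72 in DH-LMP2A (adjusted p = 5.17e-06). Erythroid markers summed to 34.5 to 306 CPM in WT, 2290 to 12134 in DH-LMP2A and 1031 to 2459 in kFRA, with 3 of 7 called higher in each comparison with WT. Plasma cell markers summed to 18890 to 24141 CPM in WT, 34147 to 47160 in DH-LMP2A and 20401 to 32064 in kFRA. Jchain alone made up most of this sum, at 17825 ± 2117, 30965 ± 6654 and 21118 ± 5681 CPM in the same order (SD, n = 3 each). It was called by edgeR in no comparison, and by the DESeq2 Wald test in DH-LMP2A against WT. Of the 8 markers, 2 were higher and 1 lower in kFRA against WT, and 3 were higher and 1 lower in DH-LMP2A against WT. Of 8 cell cycle genes, edgeR and the DESeq2 Wald test called 0 in each comparison, with an unadjusted p-value under 0.05 for 1 in kFRA against WT, 0 in DH-LMP2A against WT and 2 in kFRA against DH-LMP2A, and with sums of 405 to 517 CPM in WT, 513 to 752 in DH-LMP2A and 239 to 666 in kFRA. Apart from Rgs13, no marker of these lists was without a count in a whole genotype, and the part of these cells in the members' results was not tested.

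**Figure D4:**
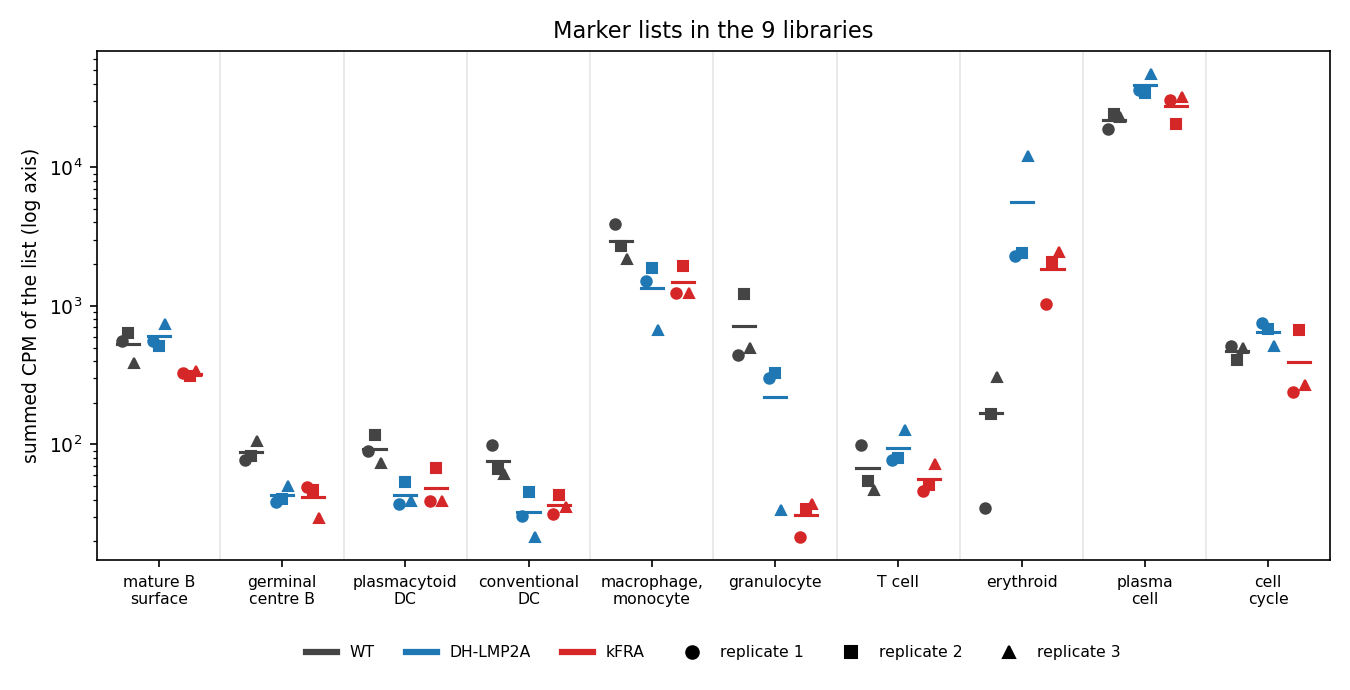
Summed CPM of each marker list in each library on a log axis, with points for libraries and bars for the mean of 3. The WT libraries lie above the others for germinal centre and dendritic cell markers and below them for erythroid markers.

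The genes whose levels ran most like the mean standardised log2 CPM of the 10 members over the 9 libraries were Grk6 (Pearson r = 0.989), Fam65b (0.983), Gm4759 (0.983), Mknk2 (0.982) and Prkcb (0.982). Grk6 encodes a kinase of G protein-coupled receptors and was at 119 ± 16 CPM for WT, 88.8 ± 12.1 for DH-LMP2A and 74.6 ± 9.3 for kFRA (SD, n = 3 each). Prkcb, the protein kinase C of B cell receptor signalling, was at 57.2 ± 11.1, 37.6 ± 6.12 and 27.2 ± 7.6 CPM in the same order. Most like Pax5 were Gm4759 (r = 0.972), Arhgef18 (0.972) and Myo1e (0.965). These were the highest of 9625 genes over libraries that share their genotype and their mixture of cells, and 122 genes had r above 0.9 with the members' mean, so the values are a description.

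The members lie on 7 chromosomes in the table's GRCm38 coordinates. Pax5 (chromosome 4, 44524757 to 44710487), Bach2 (chromosome 4, 32238804 to 32586108), Bcl6 (chromosome 16, 23965052 to 23988852), Foxo1 (chromosome 3, 52268336 to 52353221) and Bcl11a (chromosome 11, 24078056 to 24174123) overlap an exon of another gene on the opposite strand. Because the strand setting of the counting is not given in the sources used here, the values of these 5 are uncertain. Ebf1 (chromosome 11, 44617317 to 45008091), Spib (chromosome 7, 44525993 to 44532071), Spi1 (chromosome 2, 91082390 to 91115756), Id3 (chromosome 4, 136143497 to 136145755) and Irf8 (chromosome 8, 120736358 to 120756694) have no such overlap.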

How the data were processed

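The authors deposited raw read counts per gene for 9 libraries, without normalization, with gene lengths that gave the levels per kilobase, per the file headers. STAR 2.4.0a, featureCounts, Subread 1.5.0-p3 and DESeq2 are named with mm10 (GRCm38) in the submitters' processing notes, and a stranded mRNA kit in the labels' protocols. The strand setting of the counting and its handling of reads with several matches are not given in the sources used here. Of 44038 genes with a single symbol in GENCODE M21, 99.93% overlapped its GRCm38 span.

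Genotypes came from the labels. The 14199 genes passing filterByExpr, all 10 members included, were scaled by TMM and tested with edgeR 4.0.16 (R 4.3.3) in 1 quasi-likelihood fit over all libraries, with Benjamini-Hochberg adjustment and a threshold of 0.05. The fit was tested on simulated counts. The SE is the size of the log2 fold change over the square root of F. Replicates of a genotype differed beyond sampling noise (chi-square per degree of freedom 18.8 to 179). Each library came from a single spleen, so p-values measure the spread between mice. The floor of 3 counts covers counting error only, since these reads carry no molecular identifiers.

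The members, lists and tests were chosen with earlier results of these data known. Genes named are the members, up to 3 genes of each list with the smallest p-values per comparison, Prdm1, Irf4 and Xbp1, and the genes most like the members; other list genes, named to complete a count, were chosen after their values were seen. The lists covered other B lineage factors, plasma cell factors, genes activated by PAX5 or EBF1, and markers of the cell types in the plot of marker lists. Alternatives were DESeq2 size factors, library size alone, no filter, a mean of at least 5 CPM, no immunoglobulin genes, a replicate block, covariates for B cell surface markers and for Xist, only the 6 libraries compared, the DESeq2 1.42.0 Wald test and leaving out each replicate. Xist ranged from 0.459 to 783 CPM in WT, 4.48 to 924 in DH-LMP2A and 1.3 to 734 in kFRA, so each genotype held libraries with low and with high Xist.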

Additional observations from a re-analysis of the deposited data

How the results depend on the processing

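Over the 30 log2 fold changes of members, 477 alternative values were computed: 413 kept direction and side of the threshold, 34 lost the call, 10 gained one and 20 changed sign, the last all in differences not called or, for Ebf1 in kFRA against WT, called narrowly. The cause was not tested. In kFRA against WT, members called numbered 8 in the main fit, 6 to 8 without a replicate, 5 under library size alone and 0 with the B cell surface marker covariate. In DH-LMP2A against WT (5) they numbered 2 to 7 without a replicate, 3 with the marker covariate, 1 under library size alone and 3 with a mean of at least 5 CPM, where Id3 was not tested. In kFRA against DH-LMP2A (0) they numbered 0 to 1 without a replicate and 2 with the DESeq2 Wald test.

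Genes called were 2523 in kFRA against WT, 342 with the marker covariate and 1271 to 5632 without a replicate, the highest without kFRA replicate 2. They were 1756 in DH-LMP2A against WT, 960 with the marker covariate, 1094 with a mean of at least 5 CPM and 932 to 1408 without a replicate. They were 713 in kFRA against DH-LMP2A, 230 with the marker covariate, 1405 with the DESeq2 Wald test and 352 to 3299 without a replicate, the highest again without kFRA replicate 2.

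With the marker covariate, signs changed in kFRA against DH-LMP2A for Bach2 (0.05), Bcl11a (0.72), Id3 (0.69), Pax5 (0.014) and Spib (0.86), in kFRA against WT for Bcl11a (1.06), Ebf1 (0.24) and Foxo1 (0.18), and in DH-LMP2A against WT for Bcl11a (0.34) and Ebf1 (0.60). Ebf1 in DH-LMP2A against WT also changed sign under library size alone (0.27) and the Xist covariate (0.042), and ranged from −0.30 to 0.36 without a replicate. Spi1 in kFRA against DH-LMP2A changed sign under library size alone (−0.12) and no filter (−0.001), and ranged from −0.052 to 0.137 without a replicate. In that comparison, without a replicate, Bcl11a ranged from −0.75 to 0.013, Id3 from −1.16 to 0.007 and Spib from −1.40 to 0.13.

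The replicate numbers of the titles name different mice, and same-numbered libraries of different genotypes did not deviate together throughout (correlations −0.21 to 0.20). With the replicate block the members called were 8, 6 and 0 in kFRA against WT, DH-LMP2A against WT and kFRA against DH-LMP2A, and the genes called 2930, 2067 and 685. Spib was the member added (−2.29, adjusted p = 0.0304), and no other member's call changed. Depth limits Id3 most, with 3 counts in kFRA replicate 1.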

Other observations

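Within genotypes, the members did not vary as a single group. After the mean of each genotype was subtracted from log2 CPM, the 6 pairs among Pax5, Bach2, Spib and Id3 had Pearson r between 0.847 and 0.928 over the 9 libraries, and Ebf1 had r = 0.896 with Bach2 and 0.865 with Pax5. Bcl6 ran apart from these, with r = −0.10 with Pax5, −0.04 with Bach2, −0.12 with Id3 and −0.39 with Spib, and r = 0.71 with Spi1. The libraries share depth and mixture of cells, and 3 libraries a genotype leave few independent deviations, so these values are a description.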
